A study of Mus musculus with 20 samples.

Results

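The livers compared here came from wild-type mice given cadmium chloride (CdCl2) at 100 mg/L in drinking water for 3 months, and from control mice of the same time. The genes described were chosen by a rule: each was tested in the 3 exposed libraries against control 2 alone and against control 3 alone, and was kept where both tests passed an adjusted p of 0.05 in the same direction. The rule gave 60 of 14067 genes tested (0.427%), 30 higher and 30 lower in the exposed libraries (0.213% each way). The libraries were 5 of the 10 input libraries of an m6A sequencing experiment of 20 libraries, an input library being made without the antibody step, so its counts measure RNA abundance. All mice were labelled wild type, and the other input libraries were 3 exposed and 2 control libraries after 9 months on the same dose. The labels give no sex, no age at the start, no hour of collection and no statement that the replicates came from separate animals, so p-values measure only the spread between these libraries. The Y-linked genes Ddx3y, Uty, Eif2s3y and Kdm5d were detected in all 10 libraries, and Xist reached at most 5.72 CPM, the unit used throughout for counts scaled to library size.

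Cadmium accumulates in liver, where metallothioneins bind it and glutathione protects thiols from it. Many liver transcripts also follow a daily clock, in which CLOCK and ARNTL activate the period, cryptochrome and REV-ERB genes through E-boxes. PER and CRY proteins then repress CLOCK and ARNTL, REV-ERB and ROR factors act on Arntl through ROR elements, and the output factors DBP, TEF and HLF activate the D-box genes that NFIL3 represses. Feeding state moves a further set of liver genes, among them the fasting genes G6pc and Igfbp1, which insulin lowers.

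Counts summed over genes were 6962244, 7336763 and 7697203 in exposed libraries 1 to 3, 5465073 in control 2 and 8912898 in control 3. The controls stood apart from the other libraries: the median Pearson correlation of a library with the 9 others, over log2(CPM + 1) of the genes tested, was 0.871 for control 2 and 0.886 for control 3, against 0.919 to 0.937 for the other libraries. The correlation between both controls was 0.846. Hepatocyte markers were high in all 5 libraries, with a summed level of 93566 to 116379 CPM over 13 genes. Pancreas markers summed to 8.54, 15.1 and 24.3 CPM in the exposed libraries, 33.7 in control 2 and 261 in control 3, and their part in the results was not tested. In bulk RNA, fewer cells of a type and less RNA per cell cannot be told apart.

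Against both controls together, 7 genes passed an adjusted p of 0.05 in edgeR's quasi-likelihood test (0.0498% of the genes tested). Per3, Dbp, Tef, Gstt2 and Galk1 were higher in the exposed libraries (0.0355%) and Igfbp1 and Rnf125 were lower (0.0142%). At an unadjusted p of 0.05 the number was 2041 (14.5%; 7.34% higher, 7.17% lower). Against control 2 alone 1198 genes passed (8.52%), 784 of them higher (5.57%) and 414 lower (2.94%), while an unadjusted p of 0.05 gave 3807 (27.1%; 16.8% higher, 10.3% lower). Control 3 alone gave 675 (4.8%), with 362 higher (2.57%) and 313 lower (2.23%), and 2689 unadjusted (19.1%; 10.6% higher, 8.54% lower). Both single-control tests used the same 3 exposed libraries, so a gene found in both was not found in independent data. The lone control was assumed to vary like the other groups, which leaves out the spread between the 2 controls. The common dispersion, edgeR's shared measure of spread between libraries, was 0.309 with both controls, 0.217 with control 2 alone and 0.216 with control 3 alone. The p-values of the single-control tests, and so of the rule, do not include that spread. In the same pair of tests 18 genes (0.128%) passed in opposite directions.

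**Figure D1:**
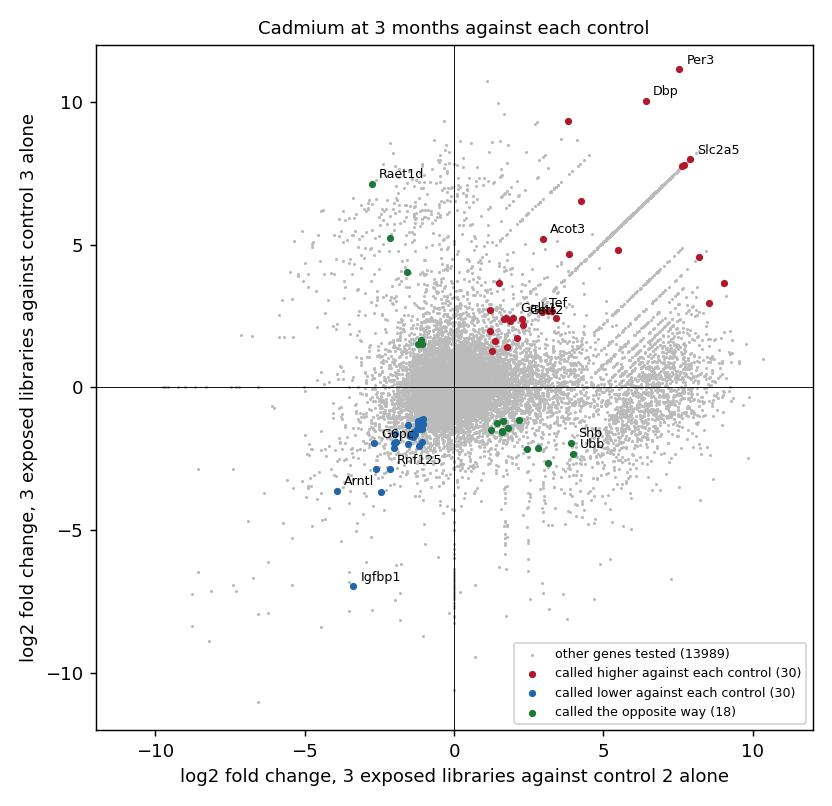
Each point is 1 of the 14067 genes tested, placed by its log2 fold change of the 3 exposed libraries against control 2 alone (horizontal axis) and against control 3 alone (vertical axis), with the 60 genes that passed the same way in red and blue and the 18 that passed the opposite way in green. Per3 lies at 7.53 and 11.15 on the axes and Igfbp1 at -3.38 and -6.97, and the green points lie in the other 2 quadrants.

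Clock genes led the higher set. Per3 (gene ID 18628, chr4:151003657-151044713 in the deposited table, for which mm10 is the only mouse build named), a member of the period family, measured 12.7, 43.6 and 71.5 CPM in exposed libraries 1 to 3, 0.211 CPM in control 2 and was at 0 in control 3. Dbp (13170, chr7:45705247-45710203), an activator of D-box genes, measured 10.2, 17.0 and 31.6 CPM in the exposed libraries against 0.211 and 0 in the controls. The controls held almost no reads of either gene, and in the exposed libraries both were lowest in library 1 and highest in library 3. As counts, Per3 had 952 in the exposed libraries and 1 in the controls, a depth-adjusted ratio of 584 (exact 95% interval 105 to 23081, counting error only). For Dbp the counts were 435 and 1, a ratio of 267 (47.6 to 10559). Both had an adjusted p of 0.00643 against both controls (edgeR). Tef (21685, chr15:81811229-81826863), a relative of Dbp, measured 99.4, 146 and 296 CPM in the exposed libraries and 23.6 and 29.0 CPM in the controls. Its groups did not overlap, and its log2 fold change was 2.77 ± 0.44 (SE, adjusted p = 0.0477, edgeR, n = 3 and 2).

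Arntl (11865, chr7:113231721-113314126), the partner of CLOCK, ran the other way: it measured 13.6, 6.13 and 0.523 CPM in the exposed libraries and 102 and 82.6 CPM in controls 2 and 3. Exposed library 3, with the most Per3, Dbp and Tef, held the least Arntl. The log2 fold change was -3.92 ± 0.88 against control 2 and -3.62 ± 0.89 against control 3 (edgeR adjusted p = 0.019 and 0.0325). Nfil3 (18030, chr13:52967209-52980193), the repressor of D-box genes, measured 5.39, 30.5 and 8.75 CPM in the exposed libraries and 81.1 and 187 CPM in the controls. All exposed values lay below both controls, with log2 fold changes of -2.44 ± 0.60 and -3.64 ± 0.58 (adjusted p = 0.0262 and 0.00296, edgeR).

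Of the 15 core clock genes tested, only Per3 and Arntl passed against each control. Bhlhe40, a repressor of CLOCK and ARNTL, missed narrowly, at 66.2, 83.4 and 113 CPM against 10.7 and 30.7 CPM (adjusted p = 0.00724 and 0.0505, edgeR). The REV-ERB genes were higher in every exposed library than in either control without passing: Nr1d1 measured 54.4, 84.7 and 63.1 against 17.3 and 21.1 CPM, and Nr1d2 265, 318 and 434 against 184 and 141 CPM. Clock passed lower against control 2 alone (adjusted p = 0.0399, edgeR), at 221, 132 and 97.1 CPM against 401 and 211 CPM, and Rora lay lower in all 3 exposed libraries, at 223, 213 and 310.3 against 416 and 493 CPM. Ciart was at 0 in both controls and at 1.95, 0.817 and 11.6 CPM in the exposed libraries. Cry2 lay higher in each exposed library, at 31.2, 44.1 and 32.4 CPM against 27.8 and 22.5 CPM, and so did Bhlhe41, at 1.5, 3.27 and 1.83 CPM against 0 and 1.29 CPM. Per1, Per2, Cry1 and Npas2 overlapped between groups. Of the 15, 7 lay wholly above both controls and 2 wholly below, beside 13.9% and 11.9% of all genes tested. Over the list the median log2 fold change was 0.83 against both controls, 1.43 against control 2 and 0.67 against control 3, beside 0.01, 0.25 and 0.08 over all genes tested. Of 15 output genes, Dbp and Tef passed higher and Nfil3 lower, while Hlf, the relative of Dbp and Tef, overlapped at 28.3, 49.2 and 59.7 against 60.6 and 11.8 CPM.

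**Figure D2:**
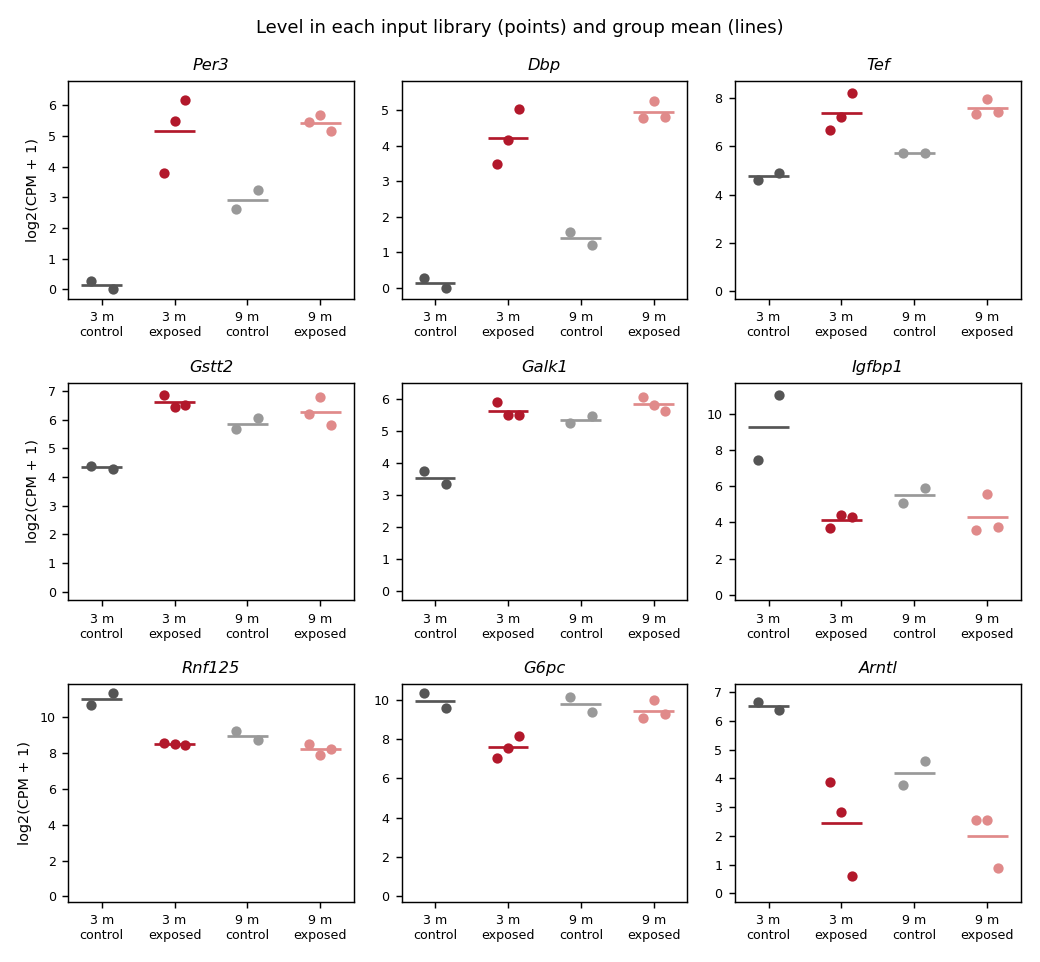
Level of 9 genes in each of the 10 input libraries, as log2(CPM + 1) on axes of different height, with points for libraries and lines for group means at 3 and 9 months (m). The 3-month groups do not overlap in any panel, and the 9-month groups also separate for Per3, Dbp, Tef, Galk1, Rnf125 and Arntl.

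Promoter sequence is shown for 4 of these genes because their known regulators act on named motifs. The windows are RefSeq's on build GRCm38.p6, 5′ to 3′ on the gene's strand, 250 bases before to 50 after an annotated start, with the motif in capitals. The motifs, read on both strands, were the D-box (TTATGTAA or TTACGTAA), the E-box (CACGTG) and the core of the ROR element (TAGGTCA). Per3 (chr4:151044616-151044915, minus strand) holds D-boxes beginning 205 and 158 bases before the start. Tef (second window, chr15:81811164-81811463, plus strand) holds an E-box 138 bases before it. Arntl (second window, chr7:113207261-113207560, plus strand) holds a ROR element core 31 bases into the transcript, and Nfil3 (chr13:52980990-52981289, minus strand) holds one 12 bases before the start, read on the opposite strand. The transcripts counted for these 4 genes begin at other annotated starts, and a match is a description of letters, not of binding.
Per3: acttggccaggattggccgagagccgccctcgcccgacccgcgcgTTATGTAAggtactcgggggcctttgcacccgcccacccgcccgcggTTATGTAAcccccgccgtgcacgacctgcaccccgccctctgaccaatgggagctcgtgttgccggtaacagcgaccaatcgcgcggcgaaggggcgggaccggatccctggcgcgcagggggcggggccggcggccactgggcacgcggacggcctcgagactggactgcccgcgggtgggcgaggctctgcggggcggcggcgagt
Tef: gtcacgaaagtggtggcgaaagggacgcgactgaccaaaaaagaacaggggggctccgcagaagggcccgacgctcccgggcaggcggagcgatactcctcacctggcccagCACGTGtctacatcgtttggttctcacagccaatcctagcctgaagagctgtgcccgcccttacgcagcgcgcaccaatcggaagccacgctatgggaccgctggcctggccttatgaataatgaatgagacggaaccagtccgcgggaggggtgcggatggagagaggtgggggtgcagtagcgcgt
Arntl: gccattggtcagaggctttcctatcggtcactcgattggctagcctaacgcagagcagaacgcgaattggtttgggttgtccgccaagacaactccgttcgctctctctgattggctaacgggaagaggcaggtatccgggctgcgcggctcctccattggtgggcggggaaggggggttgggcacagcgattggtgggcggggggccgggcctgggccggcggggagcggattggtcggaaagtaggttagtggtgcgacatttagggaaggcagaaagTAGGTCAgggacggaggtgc
Nfil3: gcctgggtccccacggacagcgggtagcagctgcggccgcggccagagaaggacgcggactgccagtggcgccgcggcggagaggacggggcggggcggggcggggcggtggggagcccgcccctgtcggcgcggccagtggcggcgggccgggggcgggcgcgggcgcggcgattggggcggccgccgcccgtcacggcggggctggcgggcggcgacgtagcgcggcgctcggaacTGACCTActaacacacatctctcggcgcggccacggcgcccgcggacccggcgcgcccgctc

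Of the 60 genes, 27 higher genes had 38 windows and 22 lower genes had 26, and windows of 1 gene can overlap. The E-box stood in 8 of the 38 windows of higher genes (21.1%), those of 1700001L05Rik, Acot4, Adh1, Galk1, Slc12a7 and Tef, in 0 of the 26 windows of lower genes, and in 7.15% of all 32851 windows. The ROR element core stood in 3 windows of lower genes (11.5%), of Arntl, G6pc and Nfil3, in 0 windows of higher genes and in 2.61% of all windows. D-boxes stood in 1 window on each side, of Per3 and of G6pc, beside 1.06% of all windows. Dbp had no match in its window to any motif searched.

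A pair of fasting genes was lower. Igfbp1 (16006, chr11:7197787-7202546), a secreted protein that binds insulin-like growth factors and rises in fasting, measured 11.8, 20.3 and 18.4 CPM in the exposed libraries, 176 CPM in control 2 and 2113 CPM in control 3. The exposed values were close together and the controls differed widely from each other, so its size depended on the control: the log2 fold change was -3.38 ± 0.56 against control 2 and -6.97 ± 0.59 against control 3 (adjusted p = 0.0077 and 3.7e-05, edgeR). Against both, it was -6.08 ± 0.87 (adjusted p = 0.026). G6pc (14377, chr11:101367716-101377903), the catalytic subunit of glucose-6-phosphatase that releases glucose from liver, measured 130.1, 186 and 288 CPM in the exposed libraries and 1291 and 775 CPM in the controls. No exposed value came near a control, and the log2 fold change was -2.68 ± 0.40 and -1.95 ± 0.41 (adjusted p = 0.00724 and 0.0152, edgeR).

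The rest of the fasting and gluconeogenesis list differed with the control used. Igfbp1 and G6pc were the 2 of its 22 genes that passed lower against each control, and 0 passed higher. With both controls in 1 fit, 10 of the 22 were lower and 1 higher at an unadjusted p under 0.05 (edgeR). The shares over all genes tested were 7.17% and 7.34%. Wholly below both controls lay 6 of the 22 and wholly above 4, beside 11.9% and 13.9% of all genes tested. Against both controls the list had a median log2 fold change of -0.82, beside 0.01 over all genes tested. Pck1, the rate-limiting enzyme of gluconeogenesis, overlapped at 434, 758 and 1025 CPM against 650.0 and 1096 CPM. The median log2 fold change of the list was 0.15 against control 2 and -0.995 against control 3, beside 0.25 and 0.08 over all genes tested. Tat, a tyrosine-degrading enzyme induced by glucocorticoids, shows that split, with 1092, 1147 and 1457 CPM in the exposed libraries, 1362 CPM in control 2 and 10025 CPM in control 3.

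Both promoters are printed because insulin and the clock are known to act on such sequences. The Igfbp1 window (chr11:7197537-7197836, plus strand) holds the insulin response element CAAAACAA, beginning 108 bases before the start, a match found in 2.51% of all windows. The G6pc window (chr11:101367466-101367765, plus strand) holds a D-box 162 bases and a ROR element core 54 bases before the start, the latter on the opposite strand. The transcripts counted for both genes begin at the annotated start inside these windows.
Igfbp1: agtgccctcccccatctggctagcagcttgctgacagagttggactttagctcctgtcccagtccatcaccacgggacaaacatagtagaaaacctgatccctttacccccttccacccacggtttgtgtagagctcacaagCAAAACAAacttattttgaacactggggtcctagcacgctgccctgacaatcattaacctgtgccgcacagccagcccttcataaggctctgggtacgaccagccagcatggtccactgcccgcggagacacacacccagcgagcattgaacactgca
G6pc: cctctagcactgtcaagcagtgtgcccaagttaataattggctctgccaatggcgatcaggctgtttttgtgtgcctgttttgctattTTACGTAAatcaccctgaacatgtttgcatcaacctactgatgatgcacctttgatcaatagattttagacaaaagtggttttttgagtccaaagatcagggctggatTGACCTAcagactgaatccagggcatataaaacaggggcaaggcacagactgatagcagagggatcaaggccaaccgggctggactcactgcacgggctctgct
The insulin response element also stood in a window of Heca and of Tab2 among the lower genes (3 of 26 windows in all, 11.5%) and of Madd among the higher genes (1 of 38, 2.63%).

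Galk1 (14635, chr11:116008357-116012719), the kinase that opens galactose use, was the one gene of 20 in glycolysis, glycogen and sugar use to pass against each control. It measured 59.3, 44.1 and 43.9 CPM in the exposed libraries and 12.4 and 9.02 CPM in the controls, without overlap, for a log2 fold change of 2.20 ± 0.33 (adjusted p = 0.0295, edgeR). Slc2a5, a fructose transporter outside that list, was at 5.84, 3.41 and 5.10 CPM in the exposed libraries and had no count in either control. Against a floor of 3 counts per control library it was at least 9.73-fold higher.

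Glutathione transferases, which join glutathione to electrophiles, held 3 of the higher genes. Gstt2 (14872, chr10:75831842-75834965) measured 115, 85.3 and 89.5 CPM in the exposed libraries and 20 and 18.4 CPM in the controls. Its controls were nearly equal, and the log2 fold change was 2.33 ± 0.35 against both (adjusted p = 0.0328, edgeR), 2.27 against control 2 and 2.39 against control 3. Its neighbour in the family, Gstt1, measured 151, 202 and 182 CPM against 74.3 and 73.0 CPM, and Gstm4 31.0, 44.0 and 29.4 CPM against 10.9 and 6.67 CPM. These also had no overlap, with log2 fold changes of 1.26 and 1.29 for Gstt1 and 1.67 and 2.38 for Gstm4 against controls 2 and 3 (adjusted p = 0.0303 and 0.0352, and 0.034 and 0.00931, edgeR). In the list of 20 transferases and glutathione peroxidases, 3 passed higher against each control and 0 lower, and 10 had every exposed library above both controls, a pattern held by 13.9% of all genes tested. Its median log2 fold change was 0.95 against control 2 and 0.71 against control 3. Gpx1, a peroxidase that uses glutathione, passed against control 3 alone, at 1549, 1701 and 1628 CPM against 998 and 822 CPM (adjusted p = 0.0957 and 0.0473, edgeR). The family is built of close copies and the counting of shared reads is not given in the sources used here, so the share of each member is uncertain.

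Of 15 genes of glutathione synthesis and its regulator NRF2, 0 passed the same way against each control. With both controls, 3 had an unadjusted p under 0.05 higher and 0 lower, beside 7.34% and 7.17% of all genes tested (edgeR). Against control 2 alone 1 passed higher (Osgin1, a target of NRF2, at 38.5, 42.2 and 58.1 CPM against 10.5 and 24.7 CPM), and against control 3 alone 1 passed higher (Nfe2l2, the gene of NRF2, at 30.3, 22.5 and 13.1 CPM against 34.7 and 3.16 CPM). The median log2 fold change was 0.63 against control 2 and 0.25 against control 3, beside 0.25 and 0.08 over all genes tested. Without overlap between groups, 3 genes were higher and 1 lower, beside 13.9% and 11.9% of all genes tested. Gclm, the regulatory subunit of the enzyme that starts glutathione synthesis, measured 347, 369 and 615 CPM against 614 and 408 CPM, and Txnrd1, thioredoxin reductase, 400.0, 299 and 357 CPM against 422 and 407 CPM. Gclm overlapped between groups, whereas Txnrd1 was lower in every exposed library than in either control without passing.

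Metallothioneins, the proteins that bind cadmium, were split by the controls. Mt1 measured 119, 56.8 and 130 CPM in the exposed libraries, 32.0 CPM in control 2 and 1191 CPM in control 3. Mt2 measured 24.6, 16.5 and 24.4 CPM in the exposed libraries against 1.05 and 425 CPM. Every exposed value lay between both controls, and the log2 fold change turned from 1.67 against control 2 to -3.55 against control 3 for Mt1, and from 4.35 to -4.28 for Mt2. Only the comparisons with control 3 passed (adjusted p = 0.00471 and 0.00739, edgeR), and 0 of the 18 genes of metal handling passed the same way against each control. Among the other metal genes, Trf, the serum iron carrier, measured 11450.5, 15151 and 14100.4 CPM against 12603 and 9985 CPM, which overlapped.

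The m6A writers Mettl3 and Mettl14 did not pass against either control. Mettl3, the catalytic subunit of the enzyme named in the title of the study, measured 11.4, 10.1 and 3.92 CPM in the exposed libraries and 13.9 and 6.09 CPM in the controls, with a log2 fold change of -0.23 ± 0.63 (adjusted p = 0.906, edgeR). Mettl3 overlapped between groups, whereas Mettl14, its partner, was above both controls in each exposed library without passing, at 2.10, 1.77 and 6.79 CPM against 0 and 0.703 CPM, near the floor of 3 counts (0.351 to 0.632 CPM in the controls). Among the 20 m6A genes tested, 0 passed the same way against each control, and the median was -0.24 against both. Without overlap, 3 were higher and 4 lower, beside 13.9% and 11.9% of all genes tested. Against control 2 alone 2 passed lower: Wtap, a subunit of the writer complex, at 25.6, 27.4 and 25.9 CPM against 57.3 and 38.4 CPM (adjusted p = 0.0436, and 0.403 against control 3), and Ythdf3, an m6A reader, at 165, 167 and 214 CPM against 351 and 239 CPM (0.0479 and 0.494, edgeR).

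Acyl-CoA thioesterases, which cut acyl-CoA to free fatty acid and CoA and are known targets of the fat sensor PPARA, gave the other pair of related higher genes. Acot3 measured 37.6, 45.4 and 61.9 CPM in the exposed libraries and 6.11 and 1.29 CPM in the controls, and Acot4 186, 143 and 159 CPM against 70.5 and 24.9 CPM. All exposed values exceeded both controls, and control 3 was the lower control for each. The log2 fold changes against controls 2 and 3 were 2.98 and 5.21 for Acot3 (adjusted p = 0.027 and 0.00404) and 1.21 and 2.70 for Acot4 (0.0474 and 0.00163, edgeR). Over the 29 genes of fatty acid oxidation and PPARA targets, these 2 passed higher against each control and 0 passed lower. Over the list the median log2 fold change was 1.51 against control 3 alone and 0.16 against control 2 alone. Over all genes tested it was 0.08 and 0.25. The thioesterases of this cluster are close copies, so reads may be shared among them.

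**Figure D3:**
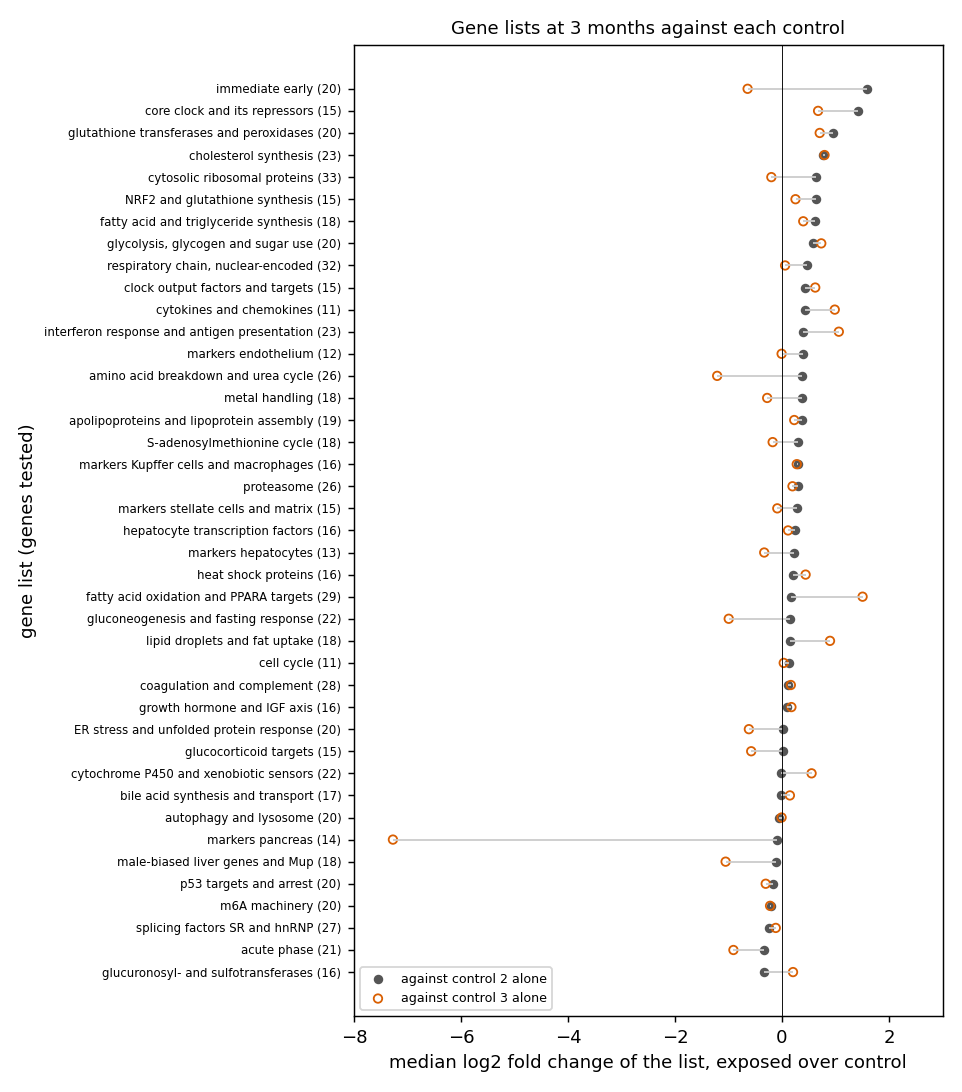
Median log2 fold change of each gene list with at least 11 genes tested, exposed over control, against control 2 alone (filled) and control 3 alone (open), with the number of genes tested in brackets. The core clock list lies right of 0 against each control (1.43 and 0.67), as does the glutathione transferase list (0.95 and 0.71), while the lists of gluconeogenesis and of amino acid breakdown lie left of 0 against control 3 (-0.995 and -1.21) and right of it against control 2 (0.15 and 0.38).

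Rnf125, an E3 ubiquitin ligase that acts on the viral RNA sensor RIG-I, was nearly level across the exposed libraries. It measured 377, 359.5 and 349.6 CPM in the exposed libraries and 1612 and 2614 CPM in the controls. The log2 fold change was -2.55 ± 0.31 (adjusted p = 0.00643, edgeR), -2.15 against control 2 and -2.85 against control 3. Ddc, the enzyme that makes dopamine and serotonin from their amino acid precursors, measured 8.84, 7.36 and 2.87 CPM against 38.5 and 45.7 CPM. Its groups did not overlap, and it fell by 2.60 on the log2 scale against control 2 and by 2.85 against control 3 (adjusted p = 0.012 and 0.00524).

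Single mitochondrial and lipid enzymes stood among the lower genes as well, though Ndufs7, a mitochondrial gene, was in the higher set. Clpx, the unfolding subunit of a mitochondrial protease, measured 152, 95.5 and 55.1 CPM against 410.0 and 433 CPM. Chka, the choline kinase that starts phosphatidylcholine synthesis, measured 80.1, 45.0 and 27.3 CPM against 199 and 157 CPM. In both, as for Arntl, exposed library 1 was the highest and library 3 the lowest of the exposed, and none reached a control, with log2 fold changes of -2.02 and -2.10 for Clpx and -1.97 and -1.63 for Chka. Idh3a, a subunit of isocitrate dehydrogenase in the citric acid cycle, had 21.3, 17.7 and 23 CPM against 46.5 and 85.5 CPM. Fgg, the gamma chain of fibrinogen and the most abundant of the lower genes, measured 2823, 2742 and 2683 CPM against 5739 and 10381 CPM. It was the one gene of 21 acute phase genes to pass against each control, at log2 fold changes of -1.06 and -1.92. Of the 21, 9 lay wholly below both controls and 1 wholly above, beside 11.9% and 13.9% of all genes tested. The median log2 fold change of that list against both controls was -1.07, beside 0.01 over all genes tested.

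Of the other lower genes, 4 are given with their levels. Btg1, an antiproliferative gene, measured 48.2, 55.4 and 66.1 CPM against 158 and 185 CPM, and Skil, a repressor of TGF-beta signalling, 43.0, 21.0 and 46.4 CPM against 108 and 145 CPM. Nrip1, a corepressor of nuclear receptors, had 35.5, 39.1 and 42.7 CPM against 85.3 and 85.6 CPM. Esf1, a nucleolar protein of ribosomal RNA processing, measured 7.94, 8.85 and 7.19 CPM against 30.5 and 30.4 CPM. None of these 4 overlapped, and their log2 fold changes lay between -1.12 and -1.98 against either control. The transcription elongation factor Ell2, the TBP-displacing ATPase Btaf1, the splicing cyclin Ccnl1, the ubiquitin ligase Trim33, the TAK1 adaptor Tab2, the RNA-binding Rbpms and Mex3c, and Ndrg1, Heca, Pxmp4, Dmxl2, Fam135a, Smim13, Ptar1 and Slain2 were also among the 30. Across all 30 the log2 fold change ran from -1.04 to -3.92 against control 2 and from -1.12 to -6.97 against control 3.

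Higher genes outside these groups included several of low count. Nudt1, which hydrolyses oxidised purine nucleotides, measured 16.3, 11.4 and 3.14 CPM against 0.211 and 0.351 CPM, and Mgmt, which removes methyl groups from guanine in DNA, 3.59, 8.04 and 6.14 CPM against 0 and 0.234 CPM. For Mgmt the counts were 130 and 2, a ratio of 39.9 (exact 95% interval 10.8 to 333, counting error only). Plekhf1, an endosomal adaptor, and Xndc1 had no count in either control and were at least 8.13-fold and 8.41-fold higher against the floor. F3, tissue factor, measured 16.3, 10.8 and 10.2 CPM against 0.632 and 0.117 CPM. In all, 10 of the 30 higher genes averaged under 10 CPM over the 5 libraries, against 0 of the 30 lower genes. Over all genes tested, 6620 of 14067 did. The other low ones among the higher genes were Cep250, Dclk3, Lonrf1 and Sac3d1.

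At higher counts, Adh1, the main liver alcohol dehydrogenase, measured 386, 391 and 586 CPM in the exposed libraries and 137 and 83.4 CPM in the controls. Hlcs, which attaches biotin to carboxylases, had 23.7, 31.9 and 18.8 CPM against 2.32 and 4.57 CPM. Neither overlapped, with log2 fold changes of 1.73 and 2.45 for Adh1 and 3.41 and 2.44 for Hlcs. Rnf43, a ubiquitin ligase that removes Wnt receptors, measured 32.8, 28.5 and 23.5 CPM against 9.90 and 2.22 CPM, and Ndufs7, a subunit of respiratory complex I, 74.1, 60.2 and 57.1 CPM against 24.6 and 20.8 CPM. The potassium-chloride transporter Slc12a7, Madd, Fam13a, Tmem205, Pdap1, 1700001L05Rik and 9130409I23Rik completed the set. Its log2 fold changes ran from 1.21 to 9.03 against control 2 and from 1.29 to 11.15 against control 3.

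**Figure D4:**
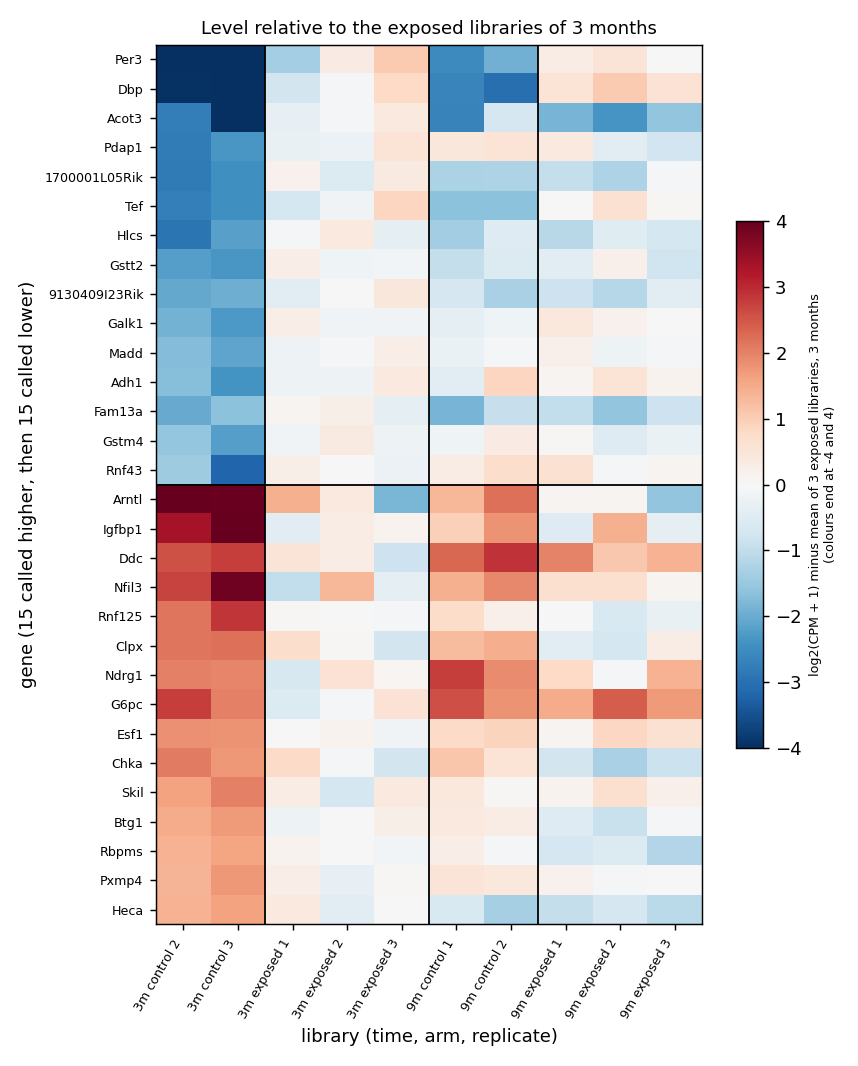
Level of the 15 higher and 15 lower genes with the largest smaller fold among those averaging at least 10 CPM, in each of the 10 input libraries, as log2(CPM + 1) minus the mean of the 3 exposed libraries of 3 months, with colours ending at -4 and 4. The 2 controls of 3 months are uniformly blue for higher and red for lower genes, whereas the 9-month controls show strong colour for only some, such as Dbp, Tef, Ddc and Ndrg1.

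All 60 genes had every exposed library beyond both controls, as 25.8% of the genes tested had, a pattern that passing against each control makes likely. With both controls in 1 fit, their adjusted p ran from 0.00643 to 0.1 for the higher and from 0.00643 to 0.114 for the lower genes. Just inside the threshold lay Acot4, Fam135a and 9130409I23Rik, with a larger adjusted p of 0.0474, 0.0476 and 0.0488. Just outside lay Bhlhe40, Hist1h4i and F2r, at 0.0505, 0.0505 and 0.0508. Per3, Dbp, Gstt2, Galk1, Igfbp1 and Rnf125 passed against each control under all 16 other ways of processing tried, while 12 of the 60 passed in fewer than 8 of them. With counts summed over transcripts, Tef and G6pc missed against control 3 (adjusted p = 0.0587 and 0.0656), Nfil3 against control 2 (0.0582) and Arntl against both (0.0761 and 0.153). Arntl passed against each control in 11 of the 16, and missed also in DESeq2, with 3-month libraries alone, without exposed library 2 and without the 2 libraries richest in pancreas RNA. Nfil3 passed in 12, the settings missed including 3-month libraries alone and the fit without the libraries richest in pancreas RNA. G6pc passed in 13, those missed including the fit without exposed library 2. Chka passed in 6 of the 16 and Idh3a in 5.

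The 2 directions differed in transcript length, which the rule did not use. Counted transcripts of the higher genes had a median length of 2247 bases, those of the lower genes 4753 bases, and all genes tested 3104 bases, as derived from the ratio of counts to TPM. Among the 2649 genes with the shortest transcripts 12 were in the higher set and 2 in the lower, and among the 2649 with the longest 5 and 9. The fold itself moved with length over all genes: the median log2 fold change was 0.66 for the shortest and -0.07 for the longest against control 2, and 0.17 and -0.0039 against control 3. The part of length in the choice of the 60 was not tested. Protein-coding genes made up 29 of the 30 higher and 30 of the 30 lower genes, beside 88.5% of all genes tested. Promoter GC content had a median of 59.2% and 62.2% beside 59.8% over all genes tested.

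The 18 genes that passed in opposite directions show how far the controls differed. Shb, a signalling adaptor, measured 18.1, 22.5 and 26.1 CPM in the exposed libraries, 1.47 CPM in control 2 and 85.2 CPM in control 3. Lipg, the endothelial lipase, measured 34.1, 18.9 and 27.4 CPM in the exposed libraries against 119 and 0.703 CPM. In each the exposed libraries lay between both controls. Higher against control 2 and lower against control 3 were 12 genes, Ubb, Shb, Tbc1d8, 2410131K14Rik, Parp4, Slc8b1, Mknk2, Rhob, Lrrc8a, Kdm4a, Slc29a1 and Slc20a1, and the reverse held for Dhdh, Copg2, LOC105246089, Depdc7, Lipg and Raet1d.

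Exposure for 9 months was measured in other libraries. These libraries were also in the fits behind the rule, so their spread entered the choice of genes. The 9-month p-values and overlaps of the chosen genes are therefore not independent of the rule, and the size of this effect was not tested. In the 9-month comparison 0 genes passed an adjusted p of 0.05 in edgeR (0.0%) and 7 did in DESeq2. An unadjusted p under 0.05 was reached by 316 genes (2.25%, with 1.14% higher and 1.1% lower). Of the 30 higher genes, 17 had a log2 fold change above 0 at 9 months, beside 50.7% of all genes tested, and 3 had an unadjusted p under 0.05. Those 3 were Per3, Dbp and Tef. Of the 30 lower genes, 20 were below 0, beside 49.2% of all, and 10 had an unadjusted p under 0.05: Arntl, Ddc, Nfil3, Rnf125, Clpx, Ndrg1, Chka, Btg1, Rbpms and Tab2. The groups did not overlap for 7 of the higher genes in the same direction (10.3% of all genes) and for 13 of the lower (11.8%), while 3 higher genes lay wholly on the other side.

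Per3 measured 42.9, 50.0 and 35.1 CPM in the 9-month exposed libraries and 5.08 and 8.34 CPM in their controls. Dbp measured 26.3, 37.4 and 27.3 CPM against 1.99 and 1.32 CPM. Tef had 162, 247 and 169 CPM against 51.9 and 51.0 CPM. The exposed libraries again lay above both controls for each, at log2 fold changes of 2.65, 4.21 and 1.91, though the adjusted p were 1.00, 0.346 and 1.00. Arntl measured 4.86, 4.89 and 0.826 CPM against 12.6 and 23.7 CPM, on the lower side in every exposed library. Chka was the lower gene with the smallest p, at 27.3, 18.1 and 24.8 CPM against 100.0 and 68.2 CPM (log2 fold change -1.84 ± 0.39).

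Igfbp1, G6pc and Gstt2 overlapped at 9 months. Igfbp1 measured 11.1, 45.8 and 12.6 CPM against 33.1 and 59.2 CPM, G6pc 532, 1024 and 622 CPM against 1147 and 668 CPM, and Gstt2 71.6, 110.4 and 55.1 CPM against 49.5 and 65.2 CPM. A test of the difference between the effects at 3 and 9 months passed for 0 genes in edgeR (0.0%) and 40 in DESeq2, with a smallest adjusted p of 0.418 and 1325 genes at an unadjusted p under 0.05 (9.42%; 4.81% higher, 4.61% lower), so edgeR showed no gene to respond at 1 time only. The mean of the 9-month controls lay nearer to the 3-month exposed libraries than to the 3-month controls for 26 of the 30 higher and 24 of the 30 lower genes, as it did for 68.2% of all genes tested.

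**Figure D5:**
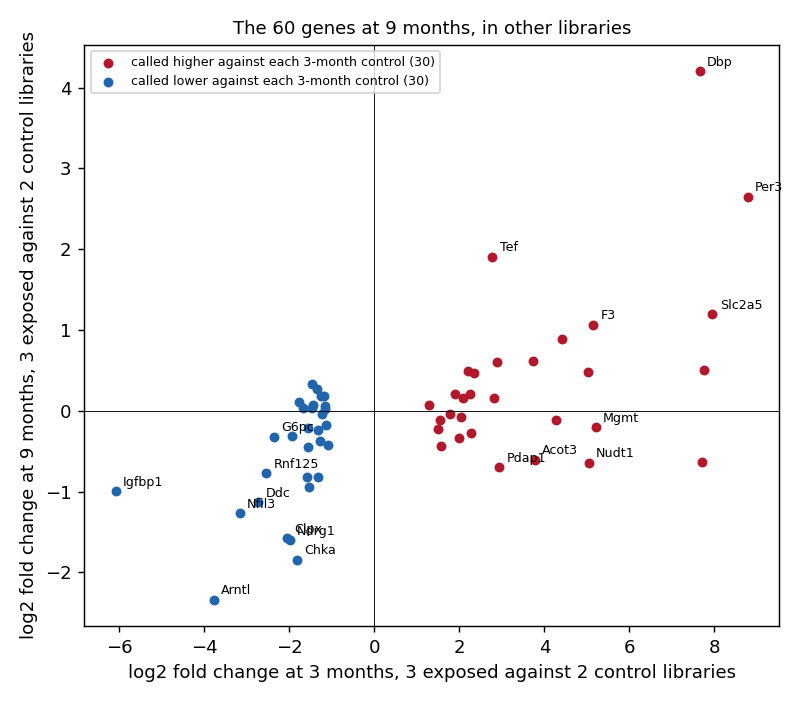
Log2 fold change of the 60 genes at 3 months (horizontal axis, against both controls) and at 9 months (vertical axis, in other libraries). Genes passing higher against each 3-month control are in red and lower in blue. The 9-month libraries were also in the fits by which the genes were chosen. Dbp, Per3 and Tef lie at the upper right, at 4.21, 2.65 and 1.91 on the 9-month axis, and Arntl and Chka at the lower left, at -2.34 and -1.84, while most other genes lie near 0 at 9 months.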

How the data were processed

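Input libraries of mouse liver were compared. Per the labels' protocols, total RNA was fragmented to about 200 bases and made into libraries with a NEBNext Ultra kit. Counts per RefSeq transcript, and TPM, were made by the authors, per the file headers. The submitters' processing notes list TopHat2 2.0.13, bcl2fastq, MACS2 2.1.0.20151222 and the builds mm10, hg19 and rn6. How reads were counted, strand included, is not given in the sources used here, so overlapping and antisense genes cannot be told apart. Pull-down libraries were not analysed here, and 12 columns of 6 libraries that match no sample were left out.

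The table's 79884 transcripts belong to 21769 genes, and each gene took the counts of its transcript with the highest sum. Deposited TPM served only to derive transcript length. Genes were filtered with filterByExpr over the 10 input libraries and scaled by TMM. They were tested with edgeR 4.0.16 in R 4.3.3 (glmQLFit, glmQLFTest, two-sided, Benjamini-Hochberg over all genes tested), with 1 coefficient for each of 4 groups and all 10 libraries in the fit. The single-control tests left out the other 3-month control and kept the same genes. Residual degrees of freedom were 6 with both controls and 5 with 1. The code was tested on simulated data. A floor of 3 counts was used for genes at 0, and intervals and floors cover counting error only. Alternatives were DESeq2 1.42.0 and its size factors, no filter on low counts, a minimum of 5 CPM in 2 libraries, a threshold of 0.1 on the adjusted p, libraries of a time alone, sums over transcripts, a replicate block, leaving out each library, and (added after seeing the data) leaving out the 2 libraries with the most pancreas RNA. Python 3.11.15 with pandas 2.3.3, scipy 1.17.1 and matplotlib 3.10.9 did the rest.

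Named genes are Mt1, Mt2, Mettl3 and Mettl14, the genes past the threshold with both controls, the 15 per direction with the largest smaller fold among non-overlapping genes of at least 10 CPM, and up to 4 members of each of 49 lists that passed, or the 2 most abundant. The remaining members of the 60, the other core clock genes, Hlf, Gpx1, Osgin1, Nfe2l2, Wtap, Ythdf3, Shb, Lipg and the Y-linked genes were named after their values were seen. Of 880 symbols on the lists, 841 matched and 780 were tested. The members and lists were chosen with earlier results of these data known. Some genes are not reported here.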

Additional observations from a re-analysis of the deposited data

Results flagged for a closer look

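Among the genes described, 4 had every exposed library beyond both controls in opposite directions at 3 and 9 months. Over all genes tested, 13.9% lay wholly higher and 11.9% wholly lower at 3 months, and 10.3% and 11.8% at 9 months. Of the 30 higher genes 3 lay wholly lower at 9 months, which is near the share of all genes. Nudt1, at a log2 fold change of 5.04 ± 0.90 (SE) at 3 months, was at -0.64 ± 0.64 at 9 months, with 7.21, 8.99 and 10.7 CPM in the exposed libraries and 12.4 and 15.6 CPM in the controls. Pdap1, at 2.93 ± 0.52 at 3 months, was at -0.70 ± 0.44, with 28.8, 15.9 and 12.6 CPM against 30 and 32.2 CPM. Tmem205, at 1.57 ± 0.30, was at -0.44 ± 0.28, with 80.9, 92.8 and 128 CPM against 141 and 132 CPM. Hsp90b1, a chaperone of the endoplasmic reticulum, went from -0.73 ± 0.27 at 3 months to 0.53 ± 0.28 at 9 months, with 762, 962 and 630.3 CPM against 488 and 599 CPM. The test of the difference between times gave adjusted p of 0.418, 0.418, 0.418 and 0.442 in edgeR, so it passed for none of the 4. For Nudt1, Pdap1 and Tmem205 the exposed mean was 10.3, 22.7 and 100.3 CPM at 3 months and 8.98, 19.1 and 101 CPM at 9 months, while the control mean went from 0.281, 2.91 and 33.8 CPM to 14.0, 31.1 and 136 CPM.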

How the results depend on the processing

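For genes changed the same way against each 3-month control, the count was 162 with DESeq2, 173 with no filter on low counts, 189 at an adjusted p under 0.1, 19 with 3-month libraries alone and 23 with the replicate block. Leaving out a library gave 19 (without exposed library 2) to 74. Of the 60, DESeq2 kept 59, no filter 56, sums over transcripts 23, 3-month libraries alone 18, the block 20 and the fit without the 2 libraries richest in pancreas RNA, a setting added after seeing the data, 37. For cadmium against control at 3 months, with both controls, the count was 479 with DESeq2, 502 with no filter, 113 at an adjusted p under 0.1, 0 with the time alone (edgeR), 11 with sums, 3 with the block and 3 without pancreas-rich libraries, and 3 to 1198 without a library (675 without control 2, 1198 without control 3). For cadmium against control 2 alone at 3 months it was 1840, 1824 and 2250 under the first 3 of these, 282 with the time alone, 564 with the block, 734 without pancreas-rich libraries and 612 to 1205 without a library. For cadmium against control 3 alone at 3 months it was 1148, 1212 and 1139 under the first 3, 366 with sums, 389 with the block and 355 to 727 without a library. For cadmium against control at 9 months it was 7, 76 and 2 (DESeq2, no filter, time alone) and 0 to 1 without a library, and for the difference between times 40 and 208 (DESeq2, no filter) and 0 to 551. The cause was not tested, beyond fewer libraries in the fits of a time alone. Nfil3 and G6pc were among the genes that missed with the block. Deviations of the 12 same-numbered pairs from their group means correlated at -0.16 to 0.03. With groups of 2 or 3 libraries and 2 such pairs at 3 months, this cannot show whether shared numbers pair the libraries.

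Log2 fold changes that turned without a library ran from -3.55 to 1.67 for Mt1, -4.28 to 4.35 for Mt2, -0.58 to 0.20 for Errfi1 and -1.46 to 1.00 for Hnf4a, each positive without control 3. They ran from -0.72 to 0.47 for Mettl3, -0.44 to 0.29 for Cp, -1.56 to 0.38 for Ccng1, -0.51 to 0.12 for Gclm and -0.67 to 0.56 for Apob, each positive without control 2, and Mettl3 was at 0.11 without exposed library 3. Errfi1 was at 0.015 with the replicate block. Of 82 named genes under 18 alternatives, 1186 values kept direction and side of the threshold, 232 came to pass, 47 ceased to and 11 turned. With 2 controls that correlated at 0.846, folds of genes in which they differ, and of genes under 10 CPM, are the least firm.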

Other observations

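For several metabolic lists the median log2 fold change lay lower against control 3 than against control 2, a difference that was not tested. Over all genes tested the medians were 0.08 against control 3 and 0.25 against control 2. Over 26 genes of amino acid breakdown and the urea cycle they were -1.21 against control 3 and 0.38 against control 2. Cps1, the first enzyme of the urea cycle, measured 6755, 4735 and 5640.1 CPM in the exposed libraries, 4599 CPM in control 2 and 21369 CPM in control 3. Over 15 glucocorticoid targets the medians were -0.58 against control 3 and 0.01 against control 2, and over 21 acute phase genes -0.91 and -0.33. Control 3, in which these genes were high, was also the 3-month library with the most Mt1, Mt2, Igfbp1 and pancreas-list RNA. The part of the latter was not tested.

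Cholesterol synthesis gave medians of 0.76 against control 2 and 0.79 against control 3, but 0 of its 23 genes passed the same way against each, and Insig1, which restrains the pathway, overlapped at 109, 361 and 486 CPM against 178 and 154 CPM. Of the 48 lists with a tested gene, 11 had a member among the 60, and 0 of the 10 lists of cell type markers did. Beyond 3 months, pancreas-list RNA summed to 9940 CPM in 9-month control 2 and 1925 CPM in 9-month exposed library 1, and the 60 genes without those libraries are counted above.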
